A study of Mus musculus with 6 samples.

Results

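The Hedgehog pathway genes from the ligand Ihh to the Gli transcription factors were examined in rib cage RNA of 16.5 dpc mouse embryos. The 9 genes Ihh, Shh, Ptch1, Hhip, Smo, Sufu, Gli1, Gli2 and Gli3 were chosen by name, and each matched 1 of the 55487 gene IDs of the count table. The 3 control libraries came from embryos E420, E434 and E435, labelled wild type, and the 3 mutant libraries from Col2-cre;Foxc1-/-;Foxc2-/- embryos E423, E433 and E440. The study describes the control embryos of its skeletal preparations, at a later stage, as lacking the Col2-cre transgene. Its methods give crosses with floxed Foxc1 and Foxc2 alleles on a mixed genetic background. If the same holds for these libraries, controls can carry the floxed alleles without losing the genes. Col2-cre is driven by type II collagen regulatory sequence. The study saw its activity in chondrocytes, perichondrium and the primary ossification centre of the hind limb, and describes earlier activity in the sclerotome of the somites. Rib cage cells in which Col2-cre was never active keep both genes, and which cells these are was not tested here. The study's methods state that animals were compared with littermates, but which of these embryos shared a litter is not given in the sources used here, and p-values measure the spread between these libraries.

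Hedgehog ligands bind the receptor Ptch1, which otherwise holds the membrane protein Smo inactive. Active Smo, working at the primary cilium, frees the Gli transcription factors from Sufu and from processing into repressors, and the target genes Gli1, Ptch1 and Hhip then rise. In the growth plate, prehypertrophic chondrocytes make Ihh, which drives chondrocyte proliferation, sustains Pthlh expression and induces osteoblasts in the perichondrium.

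The libraries held 37853988 to 47794799 counted read ends, and values are given as CPM, counts scaled to a common library size, after TMM scaling. The targeted genes were lower in every mutant. Foxc1 measured 23.1 (E420), 36.9 (E434) and 24.2 CPM (E435) in control libraries and 3.56 (E423), 9.60 (E433) and 3.51 CPM (E440) in mutant libraries. Foxc2 measured 1.98 CPM in E420, 4.83 in E434 and 3.22 in E435 for controls, then 0.649 CPM in E423, 1.14 in E433 and 0.737 in E440 for mutants. One library of each group stood apart from the rest of its group. The summed level of the 12 genes of the cartilage matrix list was 27856 CPM in control E434 and 10306 CPM in mutant E433, against 668 to 2098 CPM in the other 4 libraries. The 8 keratinocyte genes summed to 21.3 CPM in E434 and 3327 CPM in E433, against 5708 to 27723 CPM in the others. The hepatocyte list summed to 580.4 CPM in E433 and to 28.8 to 45.5 CPM elsewhere, and the adipocyte list to 132 to 145 CPM in controls and 201 to 590 CPM in mutants. The libraries left after these formed close pairs, E420 with E435 and E423 with E440, with an SD of the log2 ratio over genes of 0.155 and 0.134 against 0.488 to 1.52 in all other pairs. In read pairs their counts still differed by more than sampling noise, with a chi-square per degree of freedom of 4.57 and 1.66, and they were kept as separate samples because the labels name them as separate embryos. The counts do not show whether they are independent animals, and if they are not, each group has fewer than 3 and the SEs and p-values given here are too small.

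None of the 9 genes passed both limits, adjusted p under 0.1 and a log2 change of 1 or more either way, in edgeR's quasi-likelihood test, limits that 17 of 26596 tested genes (0.0639%) passed. All 9 genes passed the filter on low counts. The deleted genes Foxc1 and Foxc2 did not pass both limits in edgeR either. Their log2 fold changes were -2.34 and -1.99, with edgeR adjusted p of 0.235 and 0.239. A gene that is not called may therefore still differ between the groups. At an unadjusted p under 0.05, which 10.6% of all tested genes reached, 1 of 9 did so, and it was Hhip, the decoy receptor, which was also the only member whose groups did not overlap. The DESeq2 Wald test put 1 of 9 past both limits, again Hhip, against 1.71% of the genes it tested. It also put Foxc1 and Foxc2 past both limits (DESeq2 adjusted p = 1.17e-06 and 0.000251). The median log2 fold change of the 9 genes was -0.02, beside 0.01 over all tested genes. The members ranged from Ihh, 1.75 lower on the log2 scale, to Shh, 2.28 higher, while Sufu, Gli1 and Gli2 had narrow intervals around 0. In bulk rib cage RNA, fewer cells of a type and less RNA per cell cannot be told apart.

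**Figure D1:**
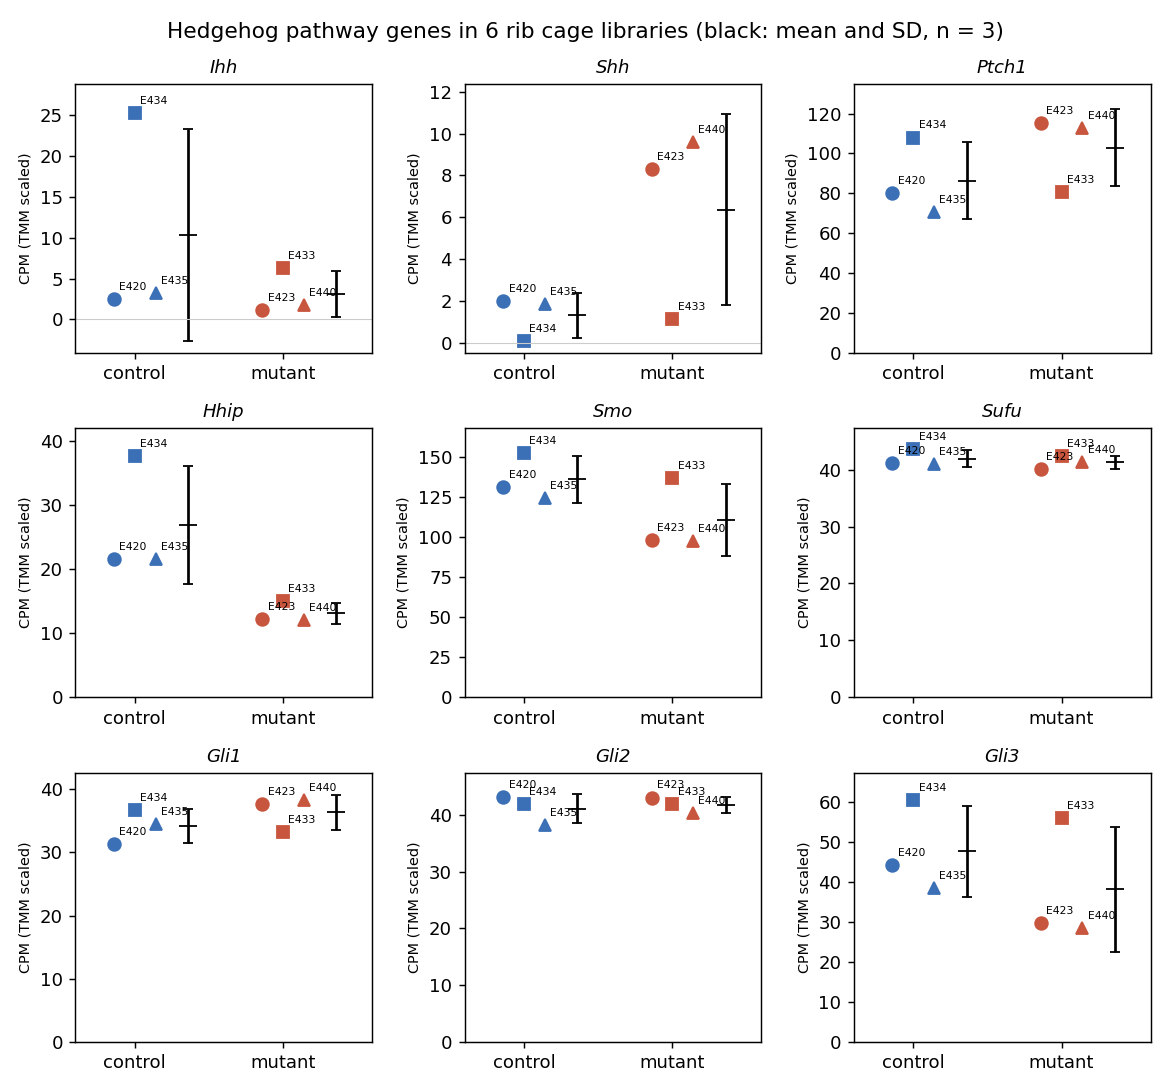
Level of each Hedgehog pathway gene in TMM-scaled CPM in the 3 control (blue) and 3 mutant (red) libraries, each point labelled with its embryo, with the group mean and SD in black. In Hhip all mutants (11.98 to 15.03 CPM) lie below all controls (21.6 to 37.6 CPM), Ihh is far higher in E434 than in any other library, and Shh is high in mutants E423 and E440.

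The promoters of Ihh, Hhip and Ptch1 are shown because these are the ligand gene of the growth plate and the main feedback genes of the pathway. RefSeq promoter windows (GRCm38.p6, 250 bases before to 50 bases after the start) matched 7 of the 9 genes, Shh and Gli1 being the exceptions. Each is printed 5′ to 3′ on the strand of its gene, with capitals marking CCACCC, the core of the GLI motif, on either strand.
Ihh, chr1:74951623-74951922, minus strand: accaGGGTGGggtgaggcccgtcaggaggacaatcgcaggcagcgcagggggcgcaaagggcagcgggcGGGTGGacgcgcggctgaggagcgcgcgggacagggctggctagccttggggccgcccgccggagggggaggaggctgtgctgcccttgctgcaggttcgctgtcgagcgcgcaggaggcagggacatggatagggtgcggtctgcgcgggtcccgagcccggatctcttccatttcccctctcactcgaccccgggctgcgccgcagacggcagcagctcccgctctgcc
Hhip, chr8:80057959-80058258, minus strand: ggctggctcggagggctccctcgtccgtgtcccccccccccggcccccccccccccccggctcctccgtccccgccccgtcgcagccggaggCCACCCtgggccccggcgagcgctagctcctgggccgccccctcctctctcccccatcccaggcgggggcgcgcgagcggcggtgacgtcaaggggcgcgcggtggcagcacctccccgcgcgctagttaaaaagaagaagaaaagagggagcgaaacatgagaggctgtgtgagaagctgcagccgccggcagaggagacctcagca
Ptch1, chr13:63565686-63565985, minus strand: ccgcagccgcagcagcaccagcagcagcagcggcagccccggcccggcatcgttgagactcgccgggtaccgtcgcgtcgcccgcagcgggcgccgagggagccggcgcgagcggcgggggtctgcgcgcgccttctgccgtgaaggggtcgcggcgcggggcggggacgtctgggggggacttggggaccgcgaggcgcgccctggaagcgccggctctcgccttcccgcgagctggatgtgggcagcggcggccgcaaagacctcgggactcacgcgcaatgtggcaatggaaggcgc

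The full GLI motif GACCACCCA, searched on both strands, was in none of the 7 windows and in 0.253% of all 32851 promoter windows. Its core CCACCC, which overlaps the full motif, was in 5 of the 7 windows, those of Ihh, Gli2, Smo, Hhip and Gli3, and in 31.5% of all windows. The forkhead motifs GTAAACA and GTAAATA were in none of the 7 windows and in 6.54% of all windows. The windows of the 7 genes held 56.3% to 76.3% G and C, beside a median of 52.7% over all windows. The Ptch1 window does not reach the outermost annotated start of the gene, which lies at position 63573598. These letters were read from the reference genome and no binding was measured here.

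Ihh, the growth plate ligand (chromosome 1, 74945315 to 74951672, minus strand), varied more between libraries than between groups. It measured 2.47 CPM (E420), 25.3 CPM (E434) and 3.19 CPM (E435) among controls, against 1.15 CPM (E423), 6.29 CPM (E433) and 1.78 CPM (E440) among mutants, from 48 to 1148 counted ends. Control E434 was the highest by far, mutant E433 lay above the other 2 controls, and the groups overlapped. The fitted log2 fold change of mutants over controls was -1.75 ± 1.07 (SE), with a 95% interval of -4.31 to 0.81 and an adjusted p of 0.595 in edgeR. Without control E434 the log2 fold change was 0.12, so the direction rests on E434 as long as mutant E433 is kept. DESeq2 gave no adjusted p for Ihh. Without both E434 and E433 the log2 fold change was -0.95, again lower in mutants. Its edgeR adjusted p of 0.00286 rests on the 2 close pairs.

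Apart from the order within each close pair, Ihh ranked the libraries as the cartilage matrix list did, whose 12 genes all had a fitted log2 fold change below 0 (median -1.32) and none of which passed the limits. In the ratio of Ihh to that list within each library, the controls averaged -4.94 ± 0.36 and the mutants -4.81 ± 1.03 on the log2 scale (SD, n = 3), and the difference of 0.14 had an exact permutation p of 0.9, where 0.1 is the smallest p that 3 against 3 can give. With the mean of the cartilage matrix list as a covariate the log2 fold change of Ihh was -0.34 (edgeR adjusted p = 0.708). Against the other 7 genes of the prehypertrophic list, the log2 ratio of Ihh differed by -0.71 between mutants and controls (exact permutation p = 0.5), and by 0.13 without E434 and -1.41 without E433. In the prehypertrophic list, which holds Ihh, 7 of 8 genes had a fold change below 0. Sgms2, a sphingomyelin synthase gene, and Cd200, a membrane glycoprotein gene, fell with edgeR adjusted p of 0.0775 and 0.0956, and the fall of Cd200, 0.92 on the log2 scale, was under the fold limit. Pth1r, the receptor for Pthlh, measured 101 (E420), 139 (E434) and 105 CPM (E435) in control libraries and 82.5 (E423), 87.3 (E433) and 81.6 CPM (E440) in mutant libraries, without overlap, and its log2 fold change of -0.46 ± 0.13 (SE) had an edgeR adjusted p of 0.389.

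Shh, the ligand of skin, limb and gut (chromosome 5, 28456815 to 28467256, minus strand), was low in the controls and high in a pair of mutants. Control values were 2.01 CPM in E420 (79 counted ends), 0.0662 CPM in E434 (3 ends) and 1.85 CPM in E435 (90 ends). Mutant values were 8.32 CPM in E423, 1.14 CPM in E433 and 9.62 CPM in E440. Mutant E433 lay below controls E420 and E435, so the groups overlapped. The log2 fold change was 2.28 ± 1.11 (SE), with a 95% interval of -0.39 to 4.95 and an edgeR adjusted p of 0.522. Without E434 and E433 it was 2.22, past both limits in the pairs that remain.

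Libraries were ordered by Shh as by the hair placode list, Edar, Wnt10b, Lhx2 and Sostdc1, genes of the early hair follicle where Shh is made in embryonic skin. That list summed to 38.6 CPM in E420, 13.3 in E434 and 38.5 in E435 for controls, then 86.8 CPM in E423, 26.3 in E433 and 90.3 in E440 for mutants. All 4 placode genes and all 8 keratinocyte genes had a fitted fold change above 0, and none of the 12 passed the limits. Relative to the placode list within each library the controls averaged -2.38 ± 1.10 and the mutants -1.44 ± 0.42 for Shh on the log2 scale (SD, n = 3), a difference of 0.94 with an exact permutation p of 0.3. Relative to the keratinocyte list the difference was -0.62 (exact permutation p = 1), and it was 0.59 without E434, where Shh had 3 counted ends. Dhh, the third mammalian Hedgehog ligand and a product of Schwann cells, ranged from 1.83 to 2.67 CPM over the 6 libraries, and its log2 fold change of 0.17 had an edgeR adjusted p of 0.767.

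**Figure D2:**
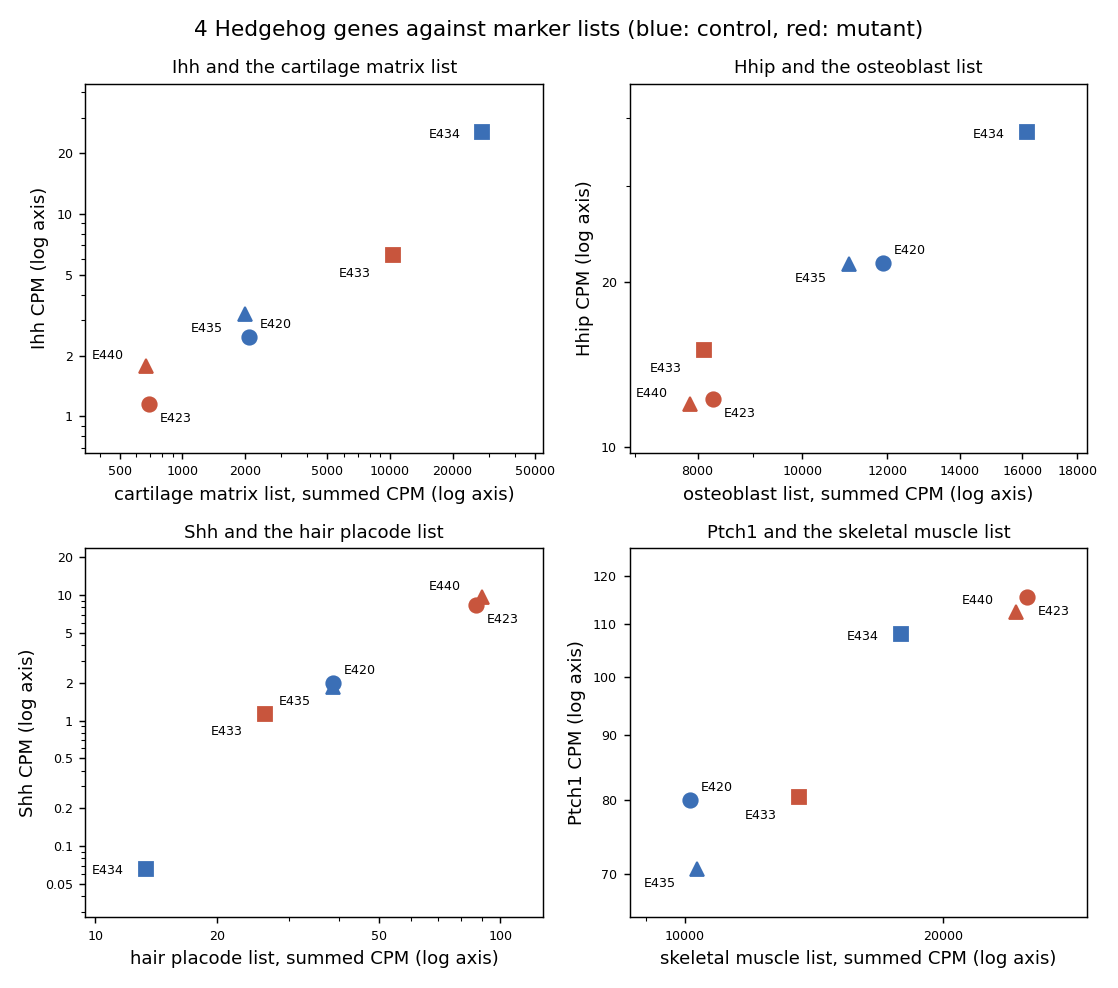
CPM of Ihh, Hhip, Shh and Ptch1 in each library against the summed CPM of a marker list, both on log axes, with controls in blue, mutants in red and embryos named. Ihh is highest in E434 and E433, the libraries with the most cartilage matrix RNA, and Shh is lowest in E434, the library with the least hair placode RNA.

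Hhip, a membrane protein that binds and sequesters Hedgehog ligands (chromosome 8, 79965851 to 80058006, minus strand), was lower in every mutant. It measured 21.7 CPM (E420), 37.6 CPM (E434) and 21.6 CPM (E435) among controls, against 12.2 CPM (E423), 15.03 CPM (E433) and 11.98 CPM (E440) among mutants. The lowest control stood above the highest mutant, a separation in that direction that 8.21% of tested genes showed. Controls averaged 27.0 ± 9.22 CPM and mutants 13.1 ± 1.70 CPM (SD, n = 3). The log2 fold change was -1.04 ± 0.25 (SE), with a 95% interval of -1.63 to -0.46, an unadjusted p of 0.00438 and an adjusted p of 0.330 over all genes in edgeR. In DESeq2 the adjusted p was 0.00427 at a log2 fold change of -1.04. With 1 library left out at a time the log2 fold change ran from -1.19 to -0.73. It passed both limits without mutant E433 (-1.15, edgeR adjusted p = 0.0763), fell short of both without control E434 (-0.73, adjusted p = 0.228), and had an adjusted p of 0.705 to 0.875 without each of the other 4 libraries in turn. Without E433 the mutants left were the close pair E423 and E440, and without E434 the controls left were the close pair E420 and E435. With the cartilage covariate the log2 fold change of Hhip was -0.79 with an edgeR adjusted p of 0.0619, below the fold limit.

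Markers of osteoblasts were lower together with Hhip, and the osteoblast list was not alone in this. The 5 genes of the hypertrophic list, which shares Ibsp with it, summed to 1722 to 2201 CPM in controls and 458 to 896 CPM in mutants. Of those 5 genes, 4 had a fitted fold change below 0 and 3 were lower in mutants without overlap. Of all tested genes, 8.21% were lower in every mutant than in every control. The summed level of the 9 genes of the osteoblast list was 11064 to 16161 CPM in controls and 7875 to 8272 CPM in mutants, and all 9 genes were lower in every mutant than in every control. Of these, Phex, an endopeptidase gene of osteoblasts and osteocytes, passed both limits, with a log2 fold change of -1.68 and an edgeR adjusted p of 0.0775. Relative to the osteoblast list, a comparison chosen after seeing the data, Hhip averaged -1.68 ± 0.38 in controls and -1.18 ± 0.61 in mutants on the log2 scale (SD, n = 3), a difference of 0.50 with an exact permutation p of 0.3. Relative to the prehypertrophic list without Ihh, Hhip was 0.40 lower in mutants on the log2 scale, without overlap (exact permutation p = 0.1, the smallest possible).

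Ptch1, the receptor and a target of the pathway (chromosome 13, 63508328 to 63573598, minus strand), measured 80.1 (E420), 108 (E434) and 70.7 CPM (E435) in control libraries and 115 (E423), 80.5 (E433) and 113 CPM (E440) in mutant libraries. Control E434 and mutants E423 and E440 were high, the other 3 libraries were low, and the groups overlapped. The log2 fold change was 0.25 ± 0.20 (SE), with a 95% interval of -0.23 to 0.74 and an edgeR adjusted p of 0.689. The same 3 libraries were highest in skeletal muscle genes, whose 6-gene list summed to 10146 CPM in E420, 17855 in E434 and 10345 in E435 for controls, then 25043 CPM in E423, 13573 in E433 and 24332 in E440 for mutants. Of these 6 genes, 5 had a fitted fold change above 0. The other 1, at a log2 fold change of -0.35, was lower in every mutant, with an edgeR unadjusted p under 0.05. The ratio of Ptch1 to a marker list turned with the list, of which the muscle and osteoblast lists were chosen for it after seeing the data. On the log2 scale it was 0.31 lower in mutants relative to the skeletal muscle list, 0.85 higher relative to the prehypertrophic list without Ihh and 1.75 higher relative to the osteoblast list, each without overlap (exact permutation p = 0.1, the smallest possible). Relative to the cartilage matrix list it was 1.69 higher, with overlap (exact permutation p = 0.5). The rise against the prehypertrophic and osteoblast lists was not particular to Ptch1. Sufu, Gli1 and Gli2 were higher by 0.57, 0.68 and 0.62 relative to the former and by 1.48, 1.59 and 1.52 relative to the latter. Each of these differences was also without overlap (exact permutation p = 0.1). Relative to the osteoblast list Shh, Smo and Gli3 were higher too, by 4.09, 1.19 and 1.13, again without overlap (exact permutation p = 0.1). Every gene of the osteoblast list was lower in every mutant, so a gene at equal levels in all libraries would give such a ratio. The ratios to that list therefore do not show a rise of the members themselves. Without E434 and E433 the log2 fold change of Ptch1 was 0.60.

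Smo, the signal transducer (chromosome 6, 29735503 to 29761365, plus strand), measured 131 CPM (E420), 152 CPM (E434) and 125 CPM (E435) among controls, against 98.2 CPM (E423), 137 CPM (E433) and 97.4 CPM (E440) among mutants. The mutants E423 and E440 lay below all controls and E433 lay among them. Its log2 fold change was -0.30 ± 0.16 (SE) with an edgeR adjusted p of 0.551. Sufu, which holds Gli proteins in the cytoplasm (chromosome 19, 46396896 to 46488804, plus strand), was the least variable member. It measured 41.1 (E420), 43.6 (E434) and 41.0 CPM (E435) in control libraries and 40.2 (E423), 42.5 (E433) and 41.4 CPM (E440) in mutant libraries, and the 95% interval of its log2 fold change of -0.02 ran from -0.19 to 0.15.

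The Gli genes encode the transcription factors at the end of the pathway. Gli1, an activator whose own expression reads out the pathway (chromosome 10, 127329882 to 127341974, minus strand), measured 31.4 CPM in E420, 36.7 in E434 and 34.5 in E435 for controls, then 37.6 CPM in E423, 33.2 in E433 and 38.3 in E440 for mutants. The groups overlapped, and the log2 fold change of 0.09 ± 0.10 (SE) had a 95% interval of -0.15 to 0.32, which leaves out a change of 1.5-fold in either direction. Gli2, the main activator (chromosome 1, 118834132 to 119053619, minus strand), measured 38.2 to 43.1 CPM in controls and 40.3 to 43.1 CPM in mutants, with an interval of -0.17 to 0.21. Gli3, the main repressor (chromosome 13, 15463235 to 15730026, plus strand), measured 44.1 CPM (E420), 60.4 CPM (E434) and 38.4 CPM (E435) among controls, against 29.8 CPM (E423), 56.0 CPM (E433) and 28.4 CPM (E440) among mutants. It was highest in E434 and E433, like the cartilage matrix list. Its log2 fold change was -0.32 ± 0.30 (SE) with an edgeR adjusted p of 0.736, and -0.08 with the cartilage covariate.

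The balance of Gli1 to Gli3 was taken within each library as the log2 ratio of TPM, counts per base of exon scaled to a common total. It was 0.45 (E420), 0.22 (E434) and 0.79 (E435) in control libraries and 1.28 (E423), 0.19 (E433) and 1.37 (E440) in mutant libraries. Mutants E423 and E440 had the highest ratios and mutant E433 the lowest. The mean was 0.49 ± 0.28 in controls and 0.95 ± 0.66 in mutants (SD, n = 3), and the difference of 0.46 had an exact permutation p of 0.4. In the TPM values the authors deposited from RSEM, control E434 was lowest at 0.58 and mutant E433 was at 0.70. The difference in those values was 0.54 (exact permutation p = 0.3). Part of the 3′ end of Gli1 overlaps Arhgap9 on the opposite strand, and reads were counted without strand, but Arhgap9 itself had 137 to 203 counted ends against 1232 to 1766 for Gli1.

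**Figure D3:**
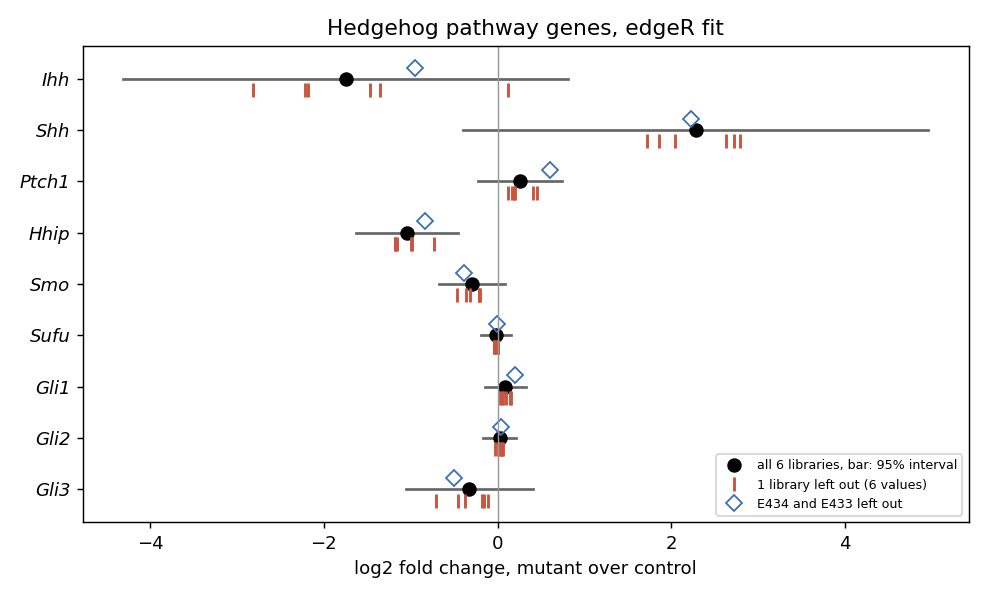
Log2 fold change of mutants over controls for the 9 genes in the edgeR fit of all 6 libraries (black, with the 95% interval), with 1 library left out at a time (red ticks) and without E434 and E433 (blue diamonds). Sufu, Gli1 and Gli2 stay close to 0, Hhip stays below 0, and for Ihh 1 red tick, the fit without control E434, lies above 0.

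Leaving out E434 and E433 together put 7 of the 9 genes under an adjusted p of 0.1 in edgeR, in a fit where 37.6% of all genes passed that limit. Shh passed with the fold limit too, and Ihh, Ptch1, Hhip, Smo, Gli1 and Gli3 passed with a log2 fold change between -0.95 and 0.60. This fit rests on the spread within the 2 close pairs. When each close pair was instead summed into 1 sample, an alternative chosen after seeing the data, no gene of the 26596 passed the limits, 2.89% had an unadjusted p under 0.05 and Hhip, at a log2 fold change of -1.13, was the member that did (edgeR unadjusted p = 0.0215, adjusted p = 0.9998).

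Per length, Smo was the most abundant member, at 60.2 ± 7.31 TPM in controls and 47.6 ± 14.1 TPM in mutants (SD, n = 3). In controls Gli1 (17.01 ± 1.46 TPM), Ptch1 (15.1 ± 3.61 TPM), Gli2 (14.9 ± 1.09 TPM), Sufu (13.5 ± 0.66 TPM) and Gli3 (12.4 ± 3.14 TPM) followed, and neighbours in that order differed by less than the larger of their SDs, except Gli2 and Sufu. Ihh (8.50 ± 10.8 TPM) and Hhip (7.40 ± 2.63 TPM) came next and Shh was the lowest at 1.14 ± 0.94 TPM. In mutants Shh averaged 5.12 ± 3.56 TPM, above Hhip at 3.47 ± 0.76 TPM and Ihh at 2.53 ± 2.51 TPM, differences smaller than the SD of Shh. In the TPM values the authors deposited from RSEM, Gli2 was lower, at 8.88 ± 0.71 TPM in controls, and Ptch1 stood above Gli1.

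**Figure D4:**
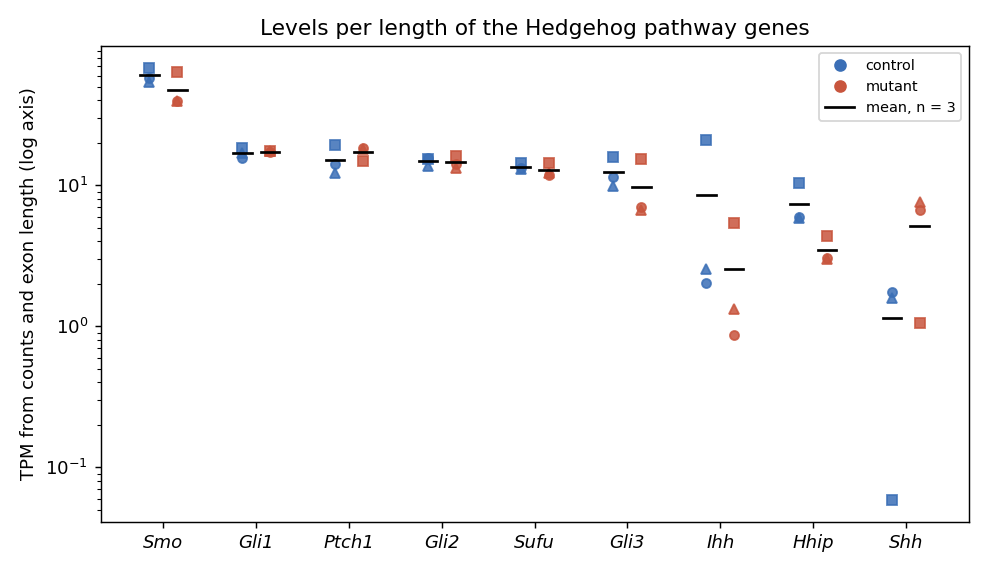
Level per length of the 9 genes in TPM on a log axis, ordered by the control mean, with controls in blue, mutants in red and the mean of 3 libraries as a bar; squares are control E434 and mutant E433. Smo is the highest gene, Gli1, Ptch1, Gli2, Sufu and Gli3 form a group between 6.72 and 19.2 TPM, and Ihh and Shh spread the most between libraries.

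The other pathway genes were read from 3 lists. None of the 11 genes of ligand release and co-reception passed the edgeR limits, and their median log2 fold change was -0.20. Those with an unadjusted p under 0.05, which 10.6% of all tested genes reached, were Scube2 and Lrp2. Scube2, which helps release lipid-bearing Hedgehog from cells, measured 18.1 CPM in E420, 30.1 in E434 and 16.3 in E435 for controls, then 7.24 CPM in E423, 16.0 in E433 and 7.19 in E440 for mutants, with the highest mutant just under the lowest control. Its log2 fold change was -1.08 ± 0.39 (SE), with an adjusted p of 0.433 in edgeR and 0.0968 in DESeq2. Lrp2, an endocytic receptor that binds Hedgehog ligands, was low throughout, at 1.70 to 1.96 CPM in controls and 0.510 to 1.13 CPM in mutants, and its log2 fold change of -1.01 had an edgeR adjusted p of 0.3996. The TPM values deposited from RSEM did not show this fall, at 0.23 ± 0.09 in controls and 0.23 ± 0.14 in mutants (SD, n = 3). The co-receptor genes Boc, Cdon and Gas1 had log2 fold changes of -0.42, -0.10 and -0.08, and their groups overlapped.

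Of the 17 genes of the cilium and of Gli processing, none passed the limits, all 17 had a fitted change under 1.5-fold and the median log2 fold change was -0.13. Of all tested genes, 10.6% had an unadjusted edgeR p under 0.05 and 8.21% were lower in mutants without overlap. Kif7, a kinesin of the cilium tip that controls Gli processing, was the gene of this list with such a p. Its groups did not overlap, unlike those of the other genes in the list. It measured 17.1 (E420), 18.3 (E434) and 17.1 CPM (E435) in control libraries and 14.02 (E423), 15.5 (E433) and 13.9 CPM (E440) in mutant libraries, and its log2 fold change of -0.28 ± 0.10 (SE) had an edgeR adjusted p of 0.428. The ciliary genes Evc and Evc2, linked to chondrodysplasia, had log2 fold changes of -0.18 and -0.32, and Prkaca, the catalytic subunit of protein kinase A that restrains the pathway, had 0.27, each with overlapping groups.

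Of the 10 genes known to respond to Hedgehog signals in some tissue, none passed the edgeR limits, and 7 had a fitted change above 0 (median 0.13). Pax9, a paired box gene of the sclerotome, from which ribs form, measured 1.78 CPM in E420, 2.76 in E434 and 1.999 in E435 for controls, then 0.722 CPM in E423, 1.11 in E433 and 0.650 in E440 for mutants, without overlap. Its log2 fold change was -1.39 ± 0.29 (SE), with an adjusted p of 0.269 in edgeR and 0.00673 in DESeq2. Pax1, its close relative, measured 7.35 CPM (E420), 15.5 CPM (E434) and 5.94 CPM (E435) among controls, against 1.44 CPM (E423), 10.4 CPM (E433) and 1.52 CPM (E440) among mutants, and mutant E433 lay above 2 of the controls (log2 fold change -1.11, edgeR adjusted p = 0.672). Nkx3-2, a repressor induced by Shh in sclerotome, was close to the floor, at 0 to 1.74 CPM. Bcl2, a survival gene, was slightly higher in every mutant, at 22.4 to 26.6 CPM in controls and 27.9 to 31.5 CPM in mutants, a separation in that direction that 6.81% of tested genes showed (log2 fold change 0.25, edgeR adjusted p = 0.465). Pthlh, which Ihh sustains in the growth plate, measured 1.70 (E420), 2.63 (E434) and 2.12 CPM (E435) in control libraries and 3.92 (E423), 1.90 (E433) and 3.58 CPM (E440) in mutant libraries (log2 fold change 0.54, edgeR adjusted p = 0.577). The cell cycle gene Ccnd1 and the signal Bmp4 had log2 fold changes of 0.07 and 0.13.

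Over the 38 genes of the 3 lists, DESeq2 put Scube2 and Pax9 past both limits, both as lower, against 1.71% of all the genes it tested. In edgeR 23 had a fitted change below 0 and 15 above 0, with a median of -0.12.

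**Figure D5:**
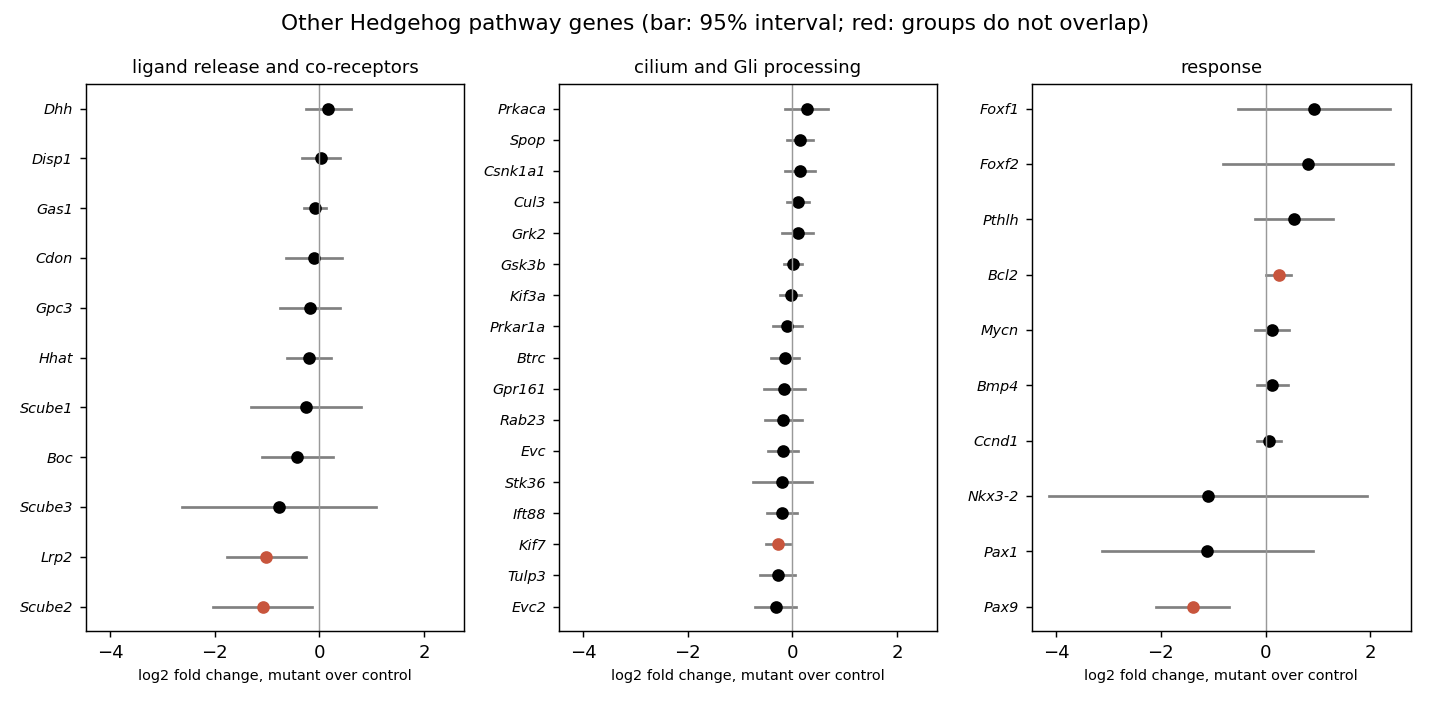
Log2 fold change of mutants over controls with its 95% interval for the other Hedgehog pathway genes in 3 lists, ordered by value. Red points mark the genes whose groups do not overlap, Scube2, Lrp2, Kif7 and Pax9 lower and Bcl2 higher in mutants. Of all tested genes, 8.21% were lower and 6.81% higher in mutants without overlap.

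The genes most like 4 of the members over the 6 libraries were ranked by Pearson's r of log2 CPM among 16547 other genes with a mean of at least 1 CPM. Many genes are this alike, since the 6 libraries share a few large differences, and the values are a description. Ihh was most like Gdf5, a growth factor of developing joints (r = 0.999), then Prkcsh (0.994) and Cyth3 (0.993), and 324 genes had an r above 0.95. Gdf5 measured 1.30 CPM in E420, 8.34 in E434 and 1.55 in E435 for controls, then 0.649 CPM in E423, 2.97 in E433 and 0.932 in E440 for mutants, the same order of libraries as Ihh. Hhip was most like Smad7, an inhibitor of TGF-β and BMP signals (0.998), then Col1a2, a chain of type I collagen (0.998), and Dhrs13 (0.998). Ptch1 was most like Tmod1, a capping protein of actin filaments (0.999), then Gpd1l (0.998) and Ptp4a3 (0.993). Gli1 was most like Sirt2, a deacetylase (0.989), then Smim19 (0.987) and P2rx5 (0.980), and 53 genes had an r above 0.95.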

How the data were processed

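Rib cage RNA of 3 control and 3 mutant embryos (16.5 dpc) was sequenced by the authors from poly(A)-selected, stranded libraries in paired-end mode. The deposited counts are whole numbers of read ends per gene, made by the authors with HISAT2 2.1.0 and featureCounts 1.6.0 on GRCm38 (GENCODE annotation), without strand, with ends counted one by one and multi-mapping reads left out. The deposited RSEM tables (STAR 2.7.6, RSEM 1.2.31) hold expected counts, which were rounded, and TPM values by the authors. Tool versions are from the submitters' processing notes.

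Another 12 columns of per-sample wild-type and knockout values, from the authors' own comparisons, were not used. Genes with at least 10 counts over the 6 libraries (26596) were tested with edgeR 4.0.16 (TMM scaling, quasi-likelihood, Benjamini-Hochberg over all genes, R 4.3.3), and DESeq2 1.42.0 was the alternative. The values of the limits were taken from the study's methods, which apply them to DESeq2 pipelines and keep only genes that agree between these. That agreement was not required here. The study's results text gives a stricter false discovery rate than its methods. Log2 CPM used a prior count of 2. TPM was computed from counts and exon lengths. Ratios within a library were compared by two-sided exact permutation. Intervals from the fit cover 95%. The code was tested on simulated counts. The members and lists were chosen with earlier results of these data known. The named genes were the members, Foxc1 and Foxc2, the 3 pathway lists with Pth1r, the 3 genes most like 4 of the members, and marker genes that moved with a result. Results for 1 gene of the lists are not reported here, and the list counts leave it out.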

Additional observations from a re-analysis of the deposited data

How the results depend on the processing

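Under the alternatives, edgeR put no Hedgehog member past both limits except without mutant E433 (1, Hhip) and without E434 and E433 together (1, Shh), and DESeq2 put 1 past them (Hhip). With 1 library left out at a time the count ran from 0 to 1. Of the 38 other pathway genes DESeq2 put 2 past both limits, the cartilage covariate 1 (Pax9), the fit without E434 and E433 6, and the fits with 1 library left out 0 to 3, the 3 being without mutant E433. Without E433 the mutants left were the close pair E423 and E440. DESeq2 put 1.71% of all the genes it tested past both limits. In the edgeR fit without E434 and E433, 37.6% of all genes had an adjusted p under 0.1. A limit of 0.05, no fold limit, other scalings and filters, robust moderation, RSEM expected counts and the close pairs summed left the counts of members and of other pathway genes at 0.

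Of 315 alternative fold changes of named genes, 290 kept their direction and side of the limits, 18 passed them and 7 changed sign. With 1 library left out the log2 fold change ran from -2.81 to 0.12 for Ihh, -0.038 to 0.0096 for Sufu, -0.029 to 0.060 for Gli2 and -0.41 to 0.046 for Cdon, and kept its sign for Hhip (-1.19 to -0.73) and Shh (1.72 to 2.78). With the cartilage covariate it was 0.0077 for Sufu and 0.040 for Cdon. Relative to the cartilage list, the mutant minus control difference with 1 library left out ran from -0.31 to 0.70 for Ihh, -0.52 to 1.601 for Hhip and -0.014 to 2.23 for Smo. Against the prehypertrophic list it was -0.71 for Ihh, from -1.41 to 0.13 with 1 library left out, and -0.40 for Hhip. The causes were not tested. RSEM levels differed from the computed TPM by over 1 SD in 9 of 18 group means. No paired analysis was made because the sample labels give no litters, so no control embryo can be matched to a mutant. With 3 libraries a group, 2 of them nearly alike, the spread between embryos rests on few samples. Shh in E434 rests on 3 counts, although that library was not shallow, at 46935412 counted ends.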
